A study of Mus musculus with 15 samples.

Results

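Mouse embryonic fibroblasts that lack p27 were compared directly with fibroblasts that lack stathmin. The comparison takes every sample whose labelled genotype is one of these single knock-outs, which gives 4 p27 knock-out and 4 stathmin knock-out arrays, or 8 of the 15 in the series. The other arrays are 4 of wild type and 3 of the double knock-out. They enter the fit only to share its estimate of the spread, and their values are given where they help to read a gene. Per the labels, all cells came from embryos at day 13.5 post coitum on a C57B6 background, were grown to passage 3 and were harvested at high confluence after 24 h without serum. The p27 knock-out cells carry no labelled change in stathmin, the stathmin knock-out cells none in p27, and the double knock-out cells lack both. Each array carried the sample in red (Cy5) and RNA of pooled fibroblasts in green (Cy3) as a common reference, with no dye swap. Replicates are labelled as biological, without saying whether each came from an embryo of its own, and the removed part of either gene is not described. Each of the 4 slides held 1 array of both genotypes, each genotype always at the same position, and an effect of position cannot be told apart from one of genotype.

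Cdkn1b encodes p27, which binds and blocks cyclin-dependent kinases, accumulates in serum-starved and confluent cells and restrains entry into S phase. Stathmin, made from Stmn1, binds tubulin dimers and destabilises microtubules, and it is switched off by phosphorylation as cells enter mitosis. p27 is known to bind stathmin, so both proteins act on proliferation and on the microtubule network. The values below are log2 ratios of sample over reference, and a log2 difference is the mean of p27 knock-out minus the mean of stathmin knock-out. A positive difference therefore means a higher ratio in cells that lack p27 than in cells that lack stathmin. "Unadjusted p" is limma's moderated p for a single gene, and a gene was called at a Benjamini-Hochberg adjusted p under 0.05 over all tested genes.

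Arrays of a genotype resembled each other little. The mean correlation across genes was -0.06 among the p27 knock-out arrays, 0.10 among the stathmin knock-out arrays and 0.15 between arrays of different genotype. The highest value between the groups was 0.65, for p27 knock-out 4 with stathmin knock-out 1. Per array, 61.6 to 78.9% of spots were well above background. Xist, the RNA that silences an X chromosome in female cells, was high (log2 ratio 1.01 to 1.98) on p27 knock-out 2 and on stathmin knock-out 1 and 2, and -2.58 to -2.12 on the other 5 arrays. The Y-linked helicase gene Ddx3y read the other way, at -7.47 to -7.22 on those 3 arrays and 0.06 to 0.79 on the other 5. The sexes of the embryos were thus not balanced between the groups by these genes. Fibroblast markers were well above background on all 8 arrays for 15 of 15 tested genes, and 22 of 24 macrophage and blood markers were as well.

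The knocked-out genes were read first. Stmn1 lies at chr4:134468320-134473843 (GRCm38) and has 2 tested probes. On the dimmer probe the p27 knock-out arrays read 0.69, 0.41, 1.49 and 1.18 on slides 1 to 4, and the stathmin knock-out arrays read -2.82, -2.64, -2.68 and -2.98. The groups were far apart, and every p27 knock-out array lay above 0 while every stathmin knock-out array lay below -2. The signal was 3.72 higher on the log2 scale in p27 knock-out (SE 0.193, 95% interval 3.31 to 4.14, adjusted p = 8.96e-07 over all tested probes by limma). On that probe wild type read 0.76 ± 0.10 (SD, n = 4) and the double knock-out -2.77 ± 0.08 (n = 3), so it divides the arrays as the labels do.

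On the brighter Stmn1 probe, which stands for the gene in the counts over genes, the p27 knock-out arrays read -0.06, -0.63, 0.62 and 0.80 and the stathmin knock-out arrays -0.06, -0.74, -0.40 and -0.85. The difference of 0.70 (SE 0.292) did not pass, the groups overlapped, and p27 knock-out was higher on 4 of 4 slides by 0.008 to 1.65. Its raw sample signal stayed high in cells labelled as lacking the gene, from 83456 to 135709 in stathmin knock-out against 91226 to 229281 in p27 knock-out. Only the dimmer probe therefore checks the stathmin label.

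Cdkn1b, at chr6:134920401-134925525, has 1 tested probe. The p27 knock-out arrays read -0.15, -0.18, 0.05 and -1.10 and the stathmin knock-out arrays 0.34, 0.17, -0.46 and -0.39. The groups overlapped, and the difference of -0.26 (SE 0.365, 95% interval -1.05 to 0.52) did not pass. Both further probes were too near background to be tested, and they went opposite ways. On one, p27 knock-out read -0.20 to -0.10 and stathmin knock-out -0.13 to 0.53, lower in p27 knock-out on 4 of 4 slides. Wild type read 0.22 to 0.36 there and the double knock-out -0.18 to -0.08. Stathmin knock-out 4 (-0.13) alone lay among the arrays that lack p27, and the rest divided as the p27 label does. On the other, p27 knock-out read -0.33 to 0.36 and stathmin knock-out -0.28 to 0.005, higher in p27 knock-out on 3 of 4 slides. Wild type read -0.13 to -0.01 there and the double knock-out -0.28 to 0.03. The p27 label was therefore checked by no tested probe, and the labels do not say where the allele lies relative to the probes.

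**Figure D1:**
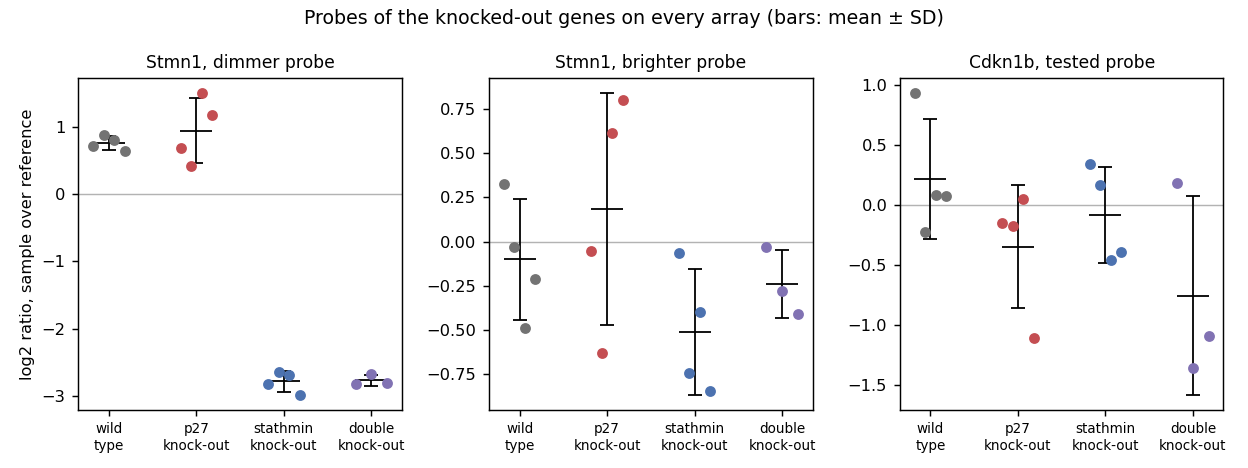
Log2 ratio of sample over reference (vertical axis) on every array of the 4 genotypes for both tested Stmn1 probes and the tested Cdkn1b probe; points are arrays, bars the mean ± SD, and each panel has its own scale. The dimmer Stmn1 probe separates wild type and p27 knock-out from the genotypes that lack stathmin, while the other panels overlap.

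Across the 18703 genes tested with a p, limma called 1, the ribosomal protein gene Rpl11, which is 0.00535%. An unadjusted p under 0.05 was reached by 289 genes (1.55%), of which 175 were higher in p27 knock-out (0.936%) and 114 lower (0.61%). Groups that did not overlap were found for 100 of the 18334 genes with a value on all 8 arrays (0.545%). They were 56 genes higher in p27 knock-out (0.305%) and 44 lower (0.24%). The difference was above 0 for 50.9% of genes, its median was 0.003, and from the 10th to the 90th percentile it ran from -0.24 to 0.27. The median 95% interval of a single gene, without adjustment, reached 0.48 to either side. The threshold over all genes was stricter, so a gene that was not called may differ by more than that. With the slide as a block, 2 genes were called (0.0107%) and 350 had an unadjusted p under 0.05 (1.87%). With each probe tested on its own, 2 of 27692 were called (0.00722%), those of Rpl11 and the dimmer Stmn1 probe. Within slides, 476 genes (2.6%) were higher in p27 knock-out on all 4 and 462 (2.52%) lower.

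**Figure D2:**
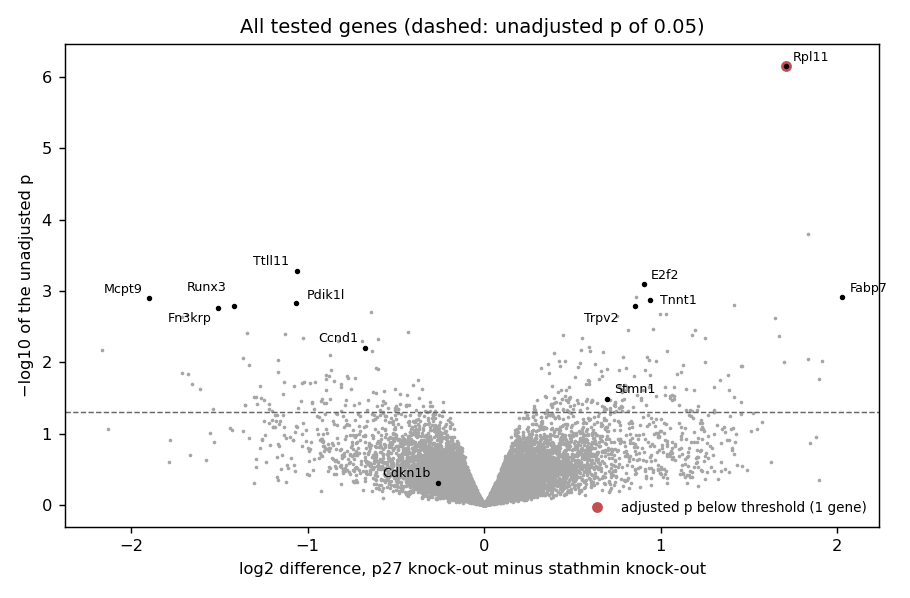
Log2 difference, p27 knock-out minus stathmin knock-out (horizontal axis), against −log10 of the unadjusted p (vertical axis) for every tested gene, with named genes in black. Rpl11, at 1.71, is the only gene whose adjusted p is below the threshold.

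Rpl11, a protein of the large ribosomal subunit that also binds Mdm2 when ribosome assembly is disturbed, was higher in p27 knock-out. Its ratios were 1.60, 1.77, 1.60 and 1.32 in p27 knock-out and 0.31, -0.05, -0.28 and -0.51 in stathmin knock-out. The groups did not overlap, and the difference was 1.71 (SE 0.195, 95% interval 1.29 to 2.13, adjusted p = 0.0130). The sample spot was saturated on p27 knock-out 4, so the ratio there is a lower limit and the difference is not exact. Without that array it was 1.79 (adjusted p = 0.0290). Wild type read 1.12 to 1.74 and the double knock-out -0.20 to 0.28, so both genotypes with an intact Stmn1 were high and both without it low. Without p27 knock-out 2 or 3, or stathmin knock-out 2 or 3, the adjusted p was 0.0783, 0.0814, 0.0605 and 0.0938 in turn, and the call was lost.

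The 2 colours of the Rpl11 probe did not move alike. The raw sample signal ran from 479377 to 612649 on p27 knock-out arrays and from 352587 to 472614 on stathmin knock-out arrays. The raw reference signal ran from 64582 to 104246 and from 155719 to 224517. Taken alone, the sample channel gave a log2 difference of 0.47 (SE 0.145, adjusted p = 1.00). For the reference channel the log2 difference was -1.23 (SE 0.134, adjusted p = 0.00649). The reference colour carried the same pooled RNA on every array, and the saturated spot of p27 knock-out 4 makes the sample side a lower limit. Rpl11 has another, dimmer probe, whose difference of -0.64 (SE 0.471) had the opposite sign. The part that the reference channel plays in the call was not tested further.

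Rpl11 lies at chr4:136049354-136053393, 1.58 Mb from Stmn1. Of the 100 tested genes nearest to Stmn1, 50 on each side over 2.59 and 3.27 Mb, 9 had an unadjusted p under 0.05, which is 9% against 1.55% of all genes. Groups did not overlap for 6.12% of them against 0.545% of all genes, and 6 of the 25 genes with the smallest p in the whole comparison were among these 100. Around Cdkn1b, where 100 genes span 7.98 and 10.2 Mb, 2 had an unadjusted p under 0.05 (2%) and groups did not overlap for 0. Why these shares differ was not tested.

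Among the neighbours of Stmn1, E2f2, a transcription factor that promotes S-phase entry, read -0.02, 0.27, 0.25 and 0.65 in p27 knock-out and -0.35, -0.88, -0.67 and -0.55 in stathmin knock-out. Its groups did not overlap, with a difference of 0.90 (SE 0.21) that did not pass over all genes. Wild type read -0.14 to 0.83 and the double knock-out -0.19 to 0.19, so the 4 stathmin knock-out arrays lay below all 11 others. Aunip, an Aurora A binding partner, differed by 0.78 (SE 0.347) with overlapping groups, higher in p27 knock-out on 4 of 4 slides.

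The other 6 neighbours with an unadjusted p under 0.05 had lower ratios in p27 knock-out. Pdik1l, a serine/threonine kinase gene, read -1.48, -0.19, -0.45 and -0.05 in p27 knock-out and 0.65, 0.54, 0.43 and 0.46 in stathmin knock-out. The Pdik1l groups did not overlap (difference -1.06, SE 0.266), and wild type was low (-1.20 to -0.35) while the double knock-out was high (0.72 to 0.99). Its other probe differed by 0.48, opposite in sign. Mtfr1l, a mitochondrial fission regulator-like gene, read -0.63 to -0.27 in p27 knock-out and -0.16 to 0.19 in stathmin knock-out, without overlap (difference -0.43, SE 0.123), and its second probe differed by only -0.03.

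The lysosomal fucosidase gene Fuca1 differed by -0.64 (SE 0.168) without overlap, while its other probe differed by 0.04. Runx3, a Runt-family transcription factor, differed by -1.42 (SE 0.359), lower on 4 of 4 slides with overlap, and its other probe by -0.14. Asap3, an Arf GTPase-activating protein gene, differed by -0.96 (SE 0.359) and Extl1, a glycosyltransferase gene of the exostosin family, by -0.37 (SE 0.154), with Extl1 well above background on 1 of 4 p27 knock-out arrays. None of these passed over all genes, and of the neighbours with a second probe Pdik1l, Fuca1 and Rpl11 had probes that disagreed in sign.

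Of the genes near Cdkn1b with an unadjusted p under 0.05, the larger difference was at Pbp2, of the phosphatidylethanolamine-binding family, at chr6:135309129-135310384. Its ratios were -2.63, -3.67, -1.98 and -2.15 in p27 knock-out and 0.24, -0.99, 1.38 and -2.39 in stathmin knock-out. The groups overlapped through stathmin knock-out 4 alone, and the difference was -2.17 (SE 0.674). Wild type was high at 0.67 to 1.69 and the double knock-out low at -2.58 to -0.80. H4f16, a histone H4 gene, differed by -0.51 (SE 0.227).

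**Figure D3:**
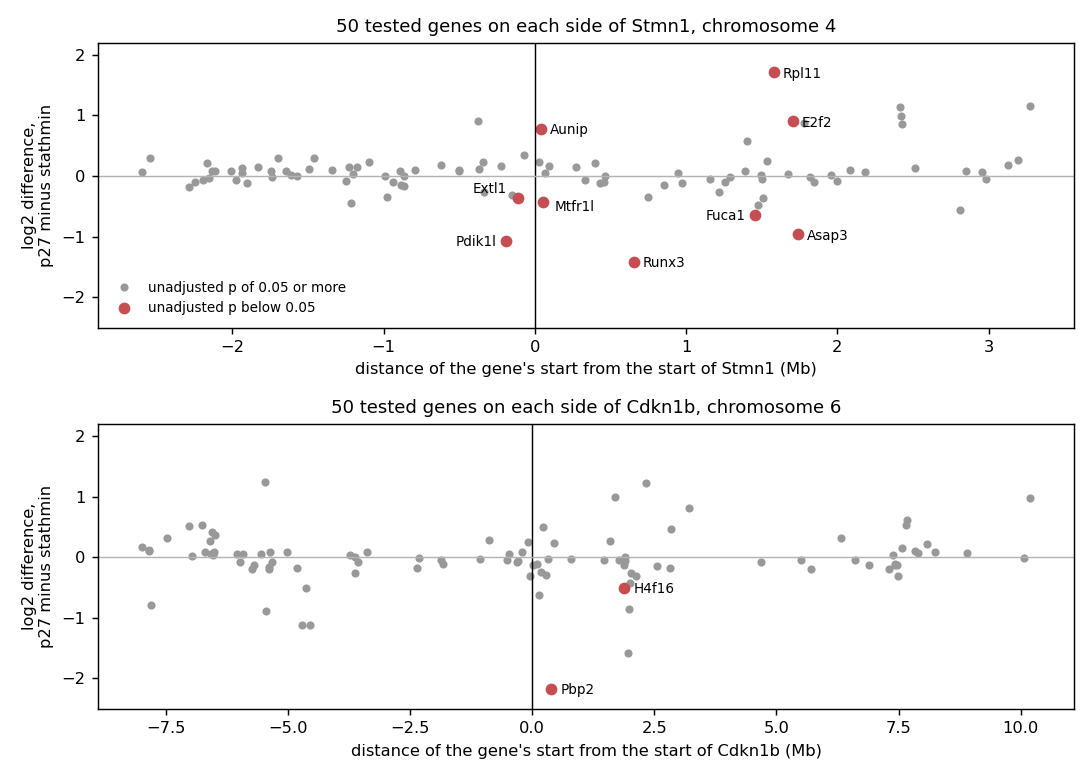
Log2 difference, p27 knock-out minus stathmin knock-out (vertical axis), of the 50 tested genes on each side of Stmn1 and of Cdkn1b, by distance of their start from the start of the knocked-out gene in Mb (horizontal axis). Red points have an unadjusted p below 0.05, and 9 of them lie around Stmn1 and 2 around Cdkn1b.

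The remaining genes with the smallest p lay elsewhere in the genome and did not pass. Among those higher in p27 knock-out was Fabp7, a fatty-acid binding protein of glia, with -0.74, 1.71, 1.06 and 0.40 in p27 knock-out and -2.29, -1.98, -0.69 and -0.72 in stathmin knock-out. Its groups overlapped only narrowly, p27 knock-out 1 lying just below stathmin knock-out 3 and 4. The difference was 2.03 (SE 0.496), the largest of the 10 named genes with the smallest p in this direction. Groups did not overlap for the slow-muscle troponin gene Tnnt1 (0.94, SE 0.233, with slide 4 at -0.02 against -0.03), the cation channel gene Trpv2 (0.85, SE 0.216), Arhgap45 (0.96, SE 0.268) and the actin-binding coactosin gene Cotl1 (0.82, SE 0.231). The other Arhgap45 probe differed by only 0.18 (SE 0.195), with overlap.

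Cotl1 gave like values on both of its probes. It read -0.21, 0.07, 0.24 and -0.10 in p27 knock-out and -0.71, -0.63, -1.03 and -0.88 in stathmin knock-out, and its second probe differed by 0.78 (SE 0.212), again without overlap. Wild type read -0.69 to -0.43. The Riken gene 4831440D22Rik differed by 0.75 (SE 0.2) with overlap. H2-T10, a class Ib histocompatibility gene, differed by 1.65, but after outlier spots were removed it kept a value on only 1 p27 knock-out array and 2 stathmin knock-out arrays.

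Among genes lower in p27 knock-out, the tubulin glutamylase family gene Ttll11 read 0.05, -0.35, -1.04 and -1.24 in p27 knock-out and 0.33, 0.55, 0.18 and 0.61 in stathmin knock-out. The groups did not overlap and the difference was -1.06 (SE 0.234), the smallest p after Rpl11 among genes with a symbol. Wild type read -0.16 to 0.16 and the double knock-out -0.61 to -0.37. The mast cell protease genes Mcpt9 and Mcpt4 differed by -1.90 (SE 0.466) and -1.68 (SE 0.445), lower on 4 of 4 slides. They are paralogs, so their probes may read each other's RNA, and in p27 knock-out 2 of 4 arrays had Mcpt9 well above background, so its difference is not exact. The second Mcpt4 probe differed by -1.12 (SE 0.338).

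Fn3krp, a ketosamine kinase gene, was not well above background on any p27 knock-out array and was so on 3 of 4 stathmin knock-out arrays. It read -0.81 to -0.32 in p27 knock-out and 1.38, 1.46, 1.43 and -0.72 in stathmin knock-out. The sample signal was at least 2.18-fold higher in stathmin knock-out (log2 difference of the ratios -1.51, SE 0.385, not passed), taking the lowest signals well above background as the limit for the dim group. Stathmin knock-out 4 stood with the p27 knock-out arrays. Without it, the 1 array that disagreed, the gene passed by limma (adjusted p = 0.000266), still against p27 knock-out values that were not above background. Leaving out the array that disagreed also narrows the spread, so this p is no separate support for a difference. Fndc3c1, an X-linked fibronectin type III domain gene, differed by -1.35 (SE 0.386) and its second probe by -0.88 (SE 0.164, adjusted p = 0.632 over probes), without overlap on that probe. Edil3, an integrin ligand of the extracellular matrix, differed by -1.13 (SE 0.326), with its 3 other probes at -0.69, -0.54 and -0.40.

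**Figure D4:**
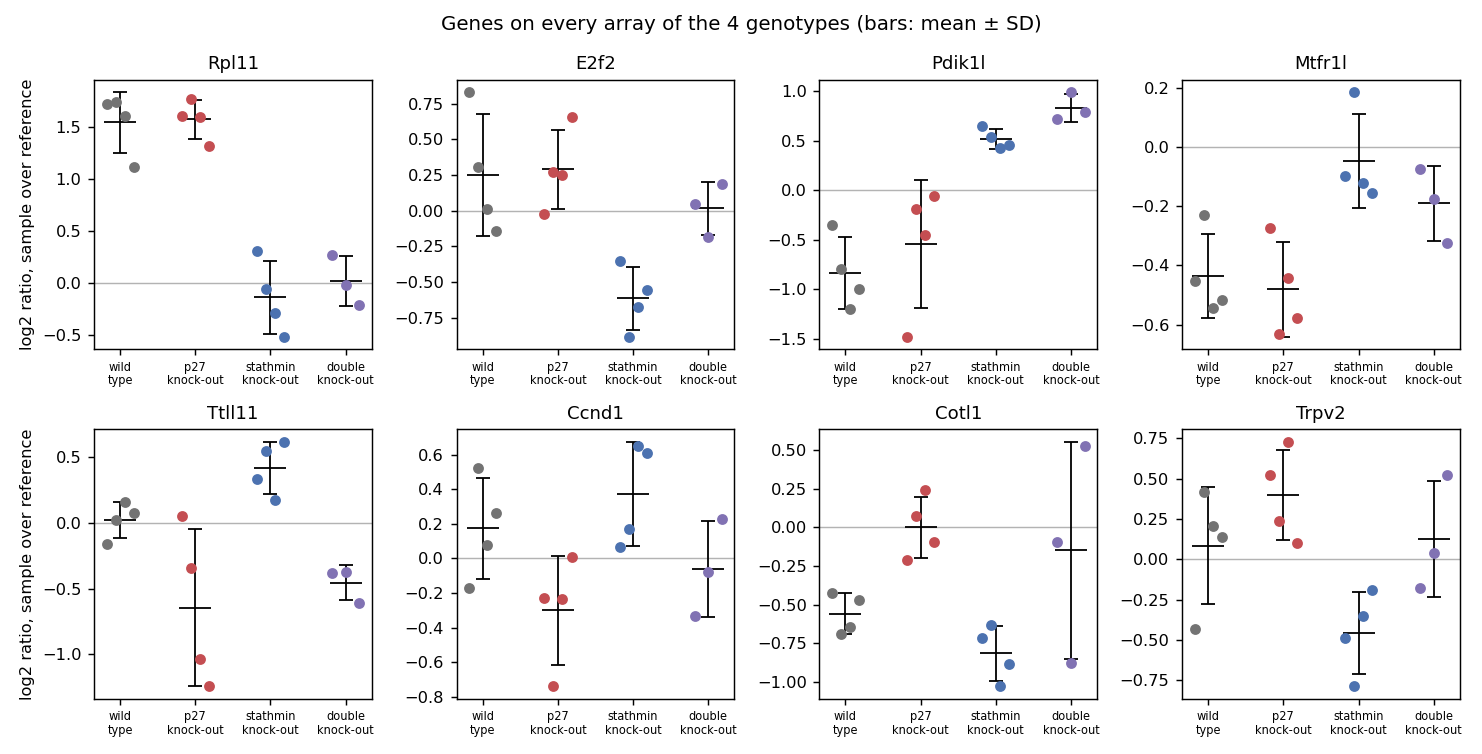
Log2 ratio of sample over reference (vertical axis) for 8 genes on every array of the 4 genotypes; points are arrays and bars the mean ± SD, with a scale of its own in each panel. Rpl11 is at or above 1.12 on every array of wild type and of p27 knock-out and at or below 0.31 on the rest. In each panel the red and blue points do not overlap, as for 0.545% of all genes, so the 8 genes do not stand for genes at large.

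Cell-cycle genes were read next, starting with CDK inhibitors, the class of protein to which p27 belongs. Of 8 CDK inhibitor genes, 4 lay above and 4 below 0, with a median of -0.03 (-0.05 to 0.07 leaving out 1 array) and 0 called, against 50.9% above 0 over all genes. Cdkn2a, which encodes p16 and p19Arf, read 0.55, 0.59, -0.95 and -0.78 in p27 knock-out and 0.46, 0.70, 0.95 and 0.87 in stathmin knock-out. The p27 knock-out arrays fell into a high and a low pair and the stathmin knock-out arrays were all high, so the difference of -0.89 (SE 0.321) rested on p27 knock-out 3 and 4.

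Of 12 genes of G1 cyclins and their kinases, 8 lay below 0, with a median of -0.04 (0.08 without p27 knock-out 2) and 0 called. Ccnd1, the cyclin D1 that partners CDK4 and CDK6, read -0.23, -0.74, -0.24 and 0.006 in p27 knock-out and 0.07, 0.17, 0.65 and 0.61 in stathmin knock-out. Its groups did not overlap, it was lower in p27 knock-out on 4 of 4 slides, and the difference of -0.67 (SE 0.207, 95% interval -1.12 to -0.23) did not pass over all genes. Ccnd2, the cyclin D2 gene, and Cdk6 differed by -0.80 (SE 0.422) and -0.40 (SE 0.229), both with overlap.

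Of 17 genes of E2F factors and pocket proteins, 12 lay above 0, with a median of 0.11 (0.05 without p27 knock-out 3). E2f2, described among the neighbours of Stmn1, was the 1 member of 17 with an unadjusted p under 0.05, against 1.55% of all genes. E2f3, an activator of the same family, lay the other way at -0.32 (SE 0.191), lower in p27 knock-out on 4 of 4 slides. Its other probes differed by only -0.03 and -0.07, with overlap.

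Genes of DNA replication and mitosis leaned toward p27 knock-out. Of 67 tested genes of G2 and mitosis, 66 lay above 0, with a median of 0.52 against 0.003 over all genes. The count called was 0. An unadjusted p under 0.05 was reached by 1 of 67, about the share of all genes (1.55%). On all 4 slides 8 of 67 were higher in p27 knock-out, against 2.6% of all genes. Of 45 DNA replication genes 42 lay above 0, with a median of 0.28, 0 called and 0 with an unadjusted p under 0.05. The members of a list were read on the same 8 arrays, so a count of members is not a count of separate measurements.

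The mean log2 ratio of the mitosis genes was -0.42, -0.81, 0.74 and 0.50 in p27 knock-out and -0.04, -1.39, -0.01 and -0.55 in stathmin knock-out. The groups overlapped, with p27 knock-out 3 and 4 high and stathmin knock-out 2 low. Within slides the p27 knock-out minus stathmin knock-out difference was -0.38, 0.58, 0.76 and 1.05, so slide 1 went the other way. Wild type lay at -0.04 to 0.57 and the double knock-out at 0.02 to 0.19.

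Leaving out stathmin knock-out 2, p27 knock-out 3 or p27 knock-out 4 lowered the median of the mitosis genes to 0.21, 0.28 and 0.33, and leaving out p27 knock-out 2 raised it to 0.80. On the arrays with low Xist it was 0.53, with 66 of 67 above 0. The median of the DNA replication genes was 0.03 without stathmin knock-out 2, with 29 of 45 above 0, 0.11 without p27 knock-out 4 and 0.14 without p27 knock-out 3. It was 0.46 without p27 knock-out 2.

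The 4 mitosis genes with the smallest p were Cdc20, an activator of the anaphase-promoting complex, Ube2c, its ubiquitin-conjugating enzyme, Ncapd2, a condensin subunit, and Nusap1, a spindle microtubule binding protein. Mitotic promoters are known for a CHR element and CCAAT boxes, so the 100 bases before the start of these genes are shown as RefSeq gives them for GRCm38.p6, 5′ to 3′ on the gene's strand. Capitals mark TTTGAA or TTCAAA (the CHR letters on either strand) and CCAAT or ATTGG.
Cdc20, chr4:118437344-118437443, minus strand: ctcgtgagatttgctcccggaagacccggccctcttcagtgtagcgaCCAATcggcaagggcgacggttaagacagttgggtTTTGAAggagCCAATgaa
Ube2c, chr2:164769829-164769928, plus strand: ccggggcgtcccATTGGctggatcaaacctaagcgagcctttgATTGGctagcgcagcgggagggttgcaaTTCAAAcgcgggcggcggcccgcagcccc
Ncapd2, chr6:125191587-125191686, minus strand: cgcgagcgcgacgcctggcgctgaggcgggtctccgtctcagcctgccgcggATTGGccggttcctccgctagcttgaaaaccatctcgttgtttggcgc
Nusap1, chr2:119618198-119618297, plus strand: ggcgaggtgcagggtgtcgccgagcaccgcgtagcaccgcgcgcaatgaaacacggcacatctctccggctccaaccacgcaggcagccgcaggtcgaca

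The CHR letters were in the window of 14 of the 55 mitosis genes that the RefSeq table holds (25.5%), against 534 of 12121 tested genes with a window (4.41%). The CCAAT letters were in 35 of 55 (63.6%), against 24.8% of tested genes. Both stood in 1 window for 12 of 55 (21.8%), against 1.15%. These motifs do not overlap in letters, and a match is a description of the window only. The windows show Cdc20 and Ube2c with both motifs, Ncapd2 with 1 CCAAT match and Nusap1 with none.

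Cdc20 read 0.10, -0.52, 0.46 and 0.16 in p27 knock-out and -0.09, -1.50, -0.26 and -1.21 in stathmin knock-out. It was higher in p27 knock-out on 4 of 4 slides with overlapping groups, and its difference of 0.81 (SE 0.313) was the largest of the mitosis genes. Ube2c, Ncapd2 and Nusap1 differed by 0.65 (SE 0.302), 0.65 (SE 0.31) and 0.64 (SE 0.323), each higher on 3 of 4 slides. The thymidine synthesis genes Tk1 and Tyms, from the replication list, differed by 0.55 (SE 0.308) and 0.31 (SE 0.193). One of the 2 other Tyms probes differed by -0.22, opposite in sign.

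Stathmin acts on tubulin, and of 16 tubulin genes 15 lay above 0, with a median of 0.43 and 0 called. An unadjusted p under 0.05 was reached by 5 of the 16, all higher in p27 knock-out, against 0.936% of all genes in that direction. Tuba4a, an alpha-tubulin gene, read -0.15, 0.15, 0.33 and -0.05 in p27 knock-out and -0.15, -0.41, -0.21 and -0.63 in stathmin knock-out. Its groups met only on slide 1, where both arrays read -0.15, and the difference was 0.42 (SE 0.139). The beta-tubulin genes Tubb5, Tubb4b and Tubb2a differed by 0.76 (SE 0.287), 0.39 (SE 0.148) and 0.46 (SE 0.187), and Tubb5 had no value on p27 knock-out 2 after outlier spots were removed. The fifth, Tubb4a, named after its value was seen, differed by 0.50 (SE 0.228). The count of 5 takes the brightest probe of each gene. Other probes differed by 0.27 and 0.15 for Tuba4a and 0.37 and 0.25 for Tubb2a, none with an unadjusted p under 0.05. The other Tubb5 probe differed by 0.62 (SE 0.256), with an unadjusted p under 0.05.

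The mean of the tubulin genes was -0.11, -0.21, 0.45 and -0.05 in p27 knock-out and -0.06, -0.58, -0.16 and -0.49 in stathmin knock-out. Within slides it differed by -0.05, 0.36, 0.61 and 0.44, so slide 1 again showed no lean toward p27 knock-out. Wild type lay at -0.24 to 0.10 and overlapped both groups. The double knock-out, which also lacks stathmin, lay at 0.04 to 0.16, above all stathmin knock-out arrays. Low tubulin ratios were thus not shared by both genotypes that lack stathmin. The median of 0.43 was 0.22 without p27 knock-out 3 and 0.27 without stathmin knock-out 2, and it was 0.50 on the arrays with low Xist. Tubulin genes share much of their coding sequence, and which of them a probe reads is not given in the files.

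Other microtubule genes were divided. Of 34 microtubule-associated and tip proteins 18 lay above and 16 below 0, with a median of 0.03 (-0.02 to 0.06 leaving out 1 array). Map7, which recruits kinesin-1, differed by -0.57 (SE 0.227) and Map2, a neuronal microtubule stabiliser, by -1.16 (SE 0.596), both with overlap. Of the other stathmin family genes, Stmn2 differed by 0.66 (SE 0.623) and Stmn4 by -0.45 (SE 0.526), and neither had a steady sign across slides.

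Of 52 ribosomal protein genes, 50 lay above 0, with a median of 0.11 and Rpl11 as the 1 gene called. Rpl32 read 0.80 to 0.93 in p27 knock-out and 0.39 to 0.73 in stathmin knock-out, without overlap (difference 0.28, SE 0.127), with 1 saturated array in each genotype. The mean over the genes was 0.80 to 0.89 in p27 knock-out and 1.08, 0.57, 0.58 and 0.39 in stathmin knock-out. Stathmin knock-out 1 alone lay above all p27 knock-out arrays. Without stathmin knock-out 4 the median was 0.03 with 33 of 52 above 0, without stathmin knock-out 1 it was 0.29, and on the arrays with low Xist it was 0.36.

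**Figure D5:**
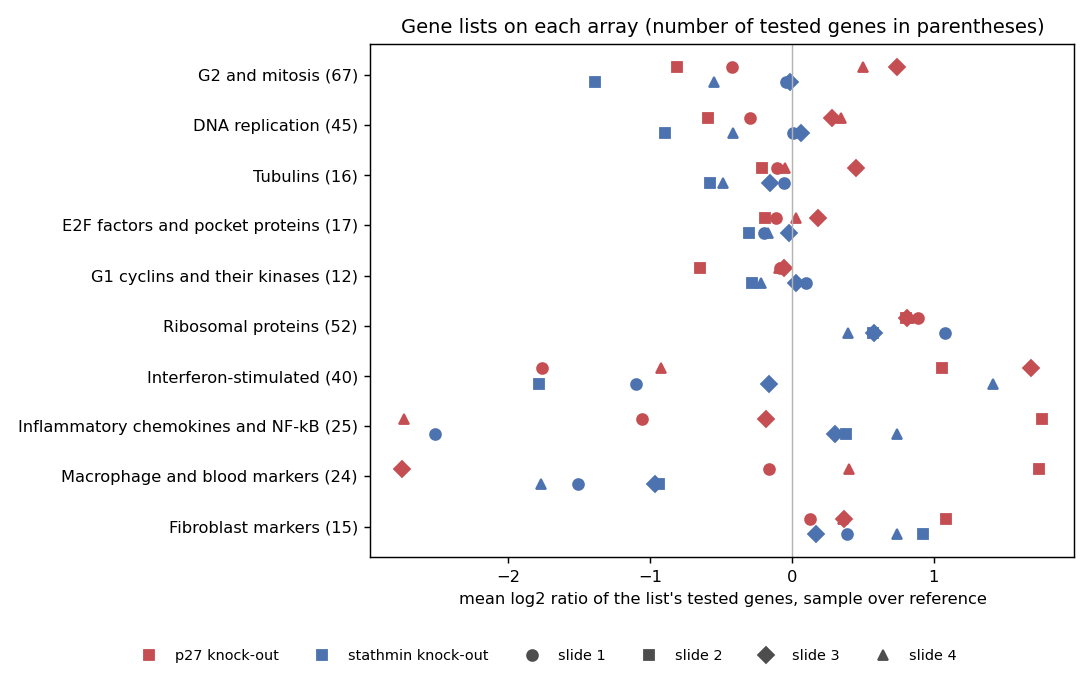
Mean log2 ratio of sample over reference (horizontal axis) of the tested genes of 10 lists on each p27 knock-out (red) and stathmin knock-out (blue) array, with a marker shape per slide. Mitosis, replication and tubulin genes lean toward p27 knock-out on slides 2 to 4 with overlapping groups, and interferon and chemokine genes spread widely in both genotypes, macrophage markers in p27 knock-out, with stathmin knock-out between -1.77 and -0.94.

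Immune genes varied widely between arrays. Of 40 interferon-stimulated genes 38 lay above 0, with a median of 0.40 and 0 called. Their mean was -1.76, 1.06, 1.69 and -0.93 in p27 knock-out and -1.10, -1.79, -0.17 and 1.42 in stathmin knock-out. Both genotypes held low and high arrays, and the differences within slides were -0.66, 2.85, 1.85 and -2.34. The median of these genes was -0.11 without p27 knock-out 3, 0.04 without p27 knock-out 2, 0.02 without stathmin knock-out 2, 0.24 without stathmin knock-out 1 and -0.79 on the arrays with low Xist. Leaving out p27 knock-out 1 or 4 raised it to 0.92 and 0.71, and leaving out stathmin knock-out 4 to 0.91. Oas2, an antiviral oligoadenylate synthetase, differed by 1.19 (SE 1.08) and Psmb9, an immunoproteasome subunit, by 0.63 (SE 0.58).

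Of 25 inflammatory chemokine and NF-kB genes 20 lay below 0, with a median of -0.27. Their mean was -1.06, 1.77, -0.18 and -2.73 in p27 knock-out and -2.52, 0.38, 0.30 and 0.74 in stathmin knock-out, so the lowest arrays were p27 knock-out 4 and stathmin knock-out 1, the pair most correlated across genotypes. Without p27 knock-out 4 the median was 0.32, and on the arrays with low Xist it was -2.06. Without p27 knock-out 2 or 3 or stathmin knock-out 1 it was -1.07, -0.53 and -0.92, and without p27 knock-out 1 or stathmin knock-out 2, 3 or 4 it was -0.06, -0.05, -0.08 and -0.07. The chemokine gene Ccl20 differed by -1.78 (SE 1.49) and the acute-phase gene Saa3 by 1.32 (SE 1.64).

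Macrophage and blood markers, genes of cells that fibroblast cultures from embryos can hold, were above 0 for 23 of 24, their median was 1.13, and 0 were called. Their mean was -0.16, 1.74, -2.75 and 0.40 in p27 knock-out and -1.51, -0.94, -0.97 and -1.77 in stathmin knock-out. The p27 knock-out arrays 1, 2 and 4 lay above all stathmin knock-out arrays and p27 knock-out 3 below all of them, and the differences within slides were 1.35, 2.68, -1.78 and 2.17. Wild type lay at -1.80 to -0.43, a range that holds all stathmin knock-out arrays. The double knock-out spread widely too, from -2.36 to 1.43. The median was 0.48 without p27 knock-out 2, 1.96 without p27 knock-out 3 and 0.52 on the arrays with low Xist. Cd68, a lysosomal protein of macrophages, Csf1r, the receptor for colony-stimulating factor 1, and Laptm5, a lysosomal protein of blood cells, differed by 1.32 (SE 0.686), 1.37 (SE 0.762) and 1.05 (SE 0.561). One of the 2 other Csf1r probes differed by -0.03. In these bulk samples fewer macrophages and less RNA per cell cannot be told apart, and their part in the other differences was not tested.

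The markers of other cell types leaned less. For fibroblast markers 10 of 15 were below 0 and the median was -0.12 (-0.15 to 0.02 leaving out 1 array). Fn1, fibronectin, differed by -0.43 (SE 0.429) and Fap, fibroblast activation protein, by -0.70 (SE 0.599). For epithelial markers 8 of 14 were above 0 and the median was 0.10 (-0.08 to 0.13 leaving out 1 array), although Pkp1, a desmosomal plakophilin, differed by -1.55 (SE 0.875) and Krt80 by 0.42 (SE 0.24). Skeletal muscle markers divided into 10 above and 12 below 0, with Tnnt1 apart as described and the myosin light chain gene Myl1 well above background on 3 of 4 p27 knock-out arrays and on 0 of 4 stathmin knock-out arrays. By the same limit the sample signal of Myl1, which averaged 7.81 in p27 knock-out and 6.90 in stathmin knock-out on the log2 scale, was at least 1.82-fold higher in p27 knock-out. The log2 ratios, which include the reference channel, differed by 0.82 (SE 0.377, not passed). For cartilage markers 12 of 14 were below 0 and the median was -0.35, but -0.03 without stathmin knock-out 2 and -0.02 on the arrays with low Xist.

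Signalling, stress and metabolic genes gave no call. Igf1, insulin-like growth factor 1, read 0.74, 1.13, -1.19 and 0.96 in p27 knock-out and 0.05, -0.46, -1.71 and -1.57 in stathmin knock-out. It was higher in p27 knock-out on 4 of 4 slides, by 1.34 (SE 0.492), with p27 knock-out 3 far below the other p27 knock-out arrays, and its 2 other probes differed by 0.97 and 0.68. Lpl, lipoprotein lipase, differed by 1.91 (SE 0.633) and its other probe had the same sign, higher on 3 of 4 slides. The Wnt genes divided evenly, 12 above and 12 below 0: Sfrp1, a secreted Wnt inhibitor, differed by 1.11 (SE 0.486), higher on 4 of 4 slides, and Tcf7, a Wnt effector, by -0.83 (SE 0.245), lower on 3 of 4.

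Of 24 p53 targets 18 lay below 0, with a median of -0.14 (-0.27 to -0.05 leaving out 1 array), among them the apoptosis effector gene Perp at -1.20 (SE 0.598) and the death receptor gene Tnfrsf10b at -0.28 (SE 0.128). Tnfrsf10b had 2 further probes at -0.30 and -0.27, so all of its probes gave like values. Of 28 collagen genes 21 lay below 0 (median -0.20, Col4a6 at -0.76, SE 0.436), and the median ran from -0.28 to -0.07 leaving out 1 array, nearest to 0 without p27 knock-out 2. Of 23 NRF2 genes 16 lay above 0 (median 0.15, and 0.03 to 0.26 leaving out 1 array), with the glutathione transferase gene Gsta3 at 1.17 (SE 0.532) and its second probe at 1.11.

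Of 28 cholesterol synthesis genes 25 lay above 0, with a median of 0.26 that was -0.02 without p27 knock-out 4 and 0.06 without stathmin knock-out 4, with 0.66 on the arrays with low Xist. The sterol dehydrogenase gene Nsdhl differed by 0.49 (SE 0.256), and its 3 other probes by 0.47 to 0.54. Of 23 glycolysis and hypoxia genes 20 lay above 0 (median 0.35, lactate dehydrogenase gene Ldha 0.61, SE 0.561, saturated on 1 array of each genotype), with -0.36 on the arrays with low Xist, 0.02 without p27 knock-out 2, and differences within slides of 0.18, 1.59, 0.89 and -1.36.

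Ras regulators gave a median of 0.04 (-0.03 to 0.05 leaving out 1 array). Immediate-early genes had 20 of 37 below 0 and a median of -0.04, which was -0.27 without stathmin knock-out 1, 0.34 without stathmin knock-out 2 and 0.24 without p27 knock-out 4. It was -0.23 and -0.17 without p27 knock-out 1 and 2, and -0.12 without stathmin knock-out 4. Rasal2, a Ras GTPase-activating protein gene, differed by -0.40 (SE 0.199) and Rapgef3, a cyclic AMP-activated Rap exchange factor, by -0.26 (SE 0.158). Fos and Egr3, transcription factors induced by serum, differed by 0.91 (SE 1.1) and -0.99 (SE 1.11), with errors larger than the differences. Of 36 Hox genes 24 lay below 0 with a median of -0.13, which was 0.30 without p27 knock-out 2, and the posterior genes went both ways, Hoxb13 at 1.15 (SE 0.449, well above background on 3 of 4 p27 and 1 of 4 stathmin knock-out arrays) and Hoxd13 at -0.89 (SE 0.502). The Iroquois gene Irx5 differed by 0.75 (SE 0.342).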

How the data were processed

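RNA of 15 fibroblast cultures was hybridised to 2-colour Agilent arrays. Feature Extraction 9.1.3.1 made the deposited scanner files, per the file headers, and subtracted no background. Spot and background signals in these files are intensities, per the file headers. The scanner's own deposited ratio is the log10 of red over green, and the table deposited by the authors holds values on a log2 scale, whose normalization is not given in the sources used here. Its direction was read from the values (correlation 0.887 to 0.932 with the scanner ratio on the 8 arrays, column medians 0.002 to 0.05).

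In limma 3.58.1 (R 4.3.3), 43379 spots per array were corrected by normexp (offset 50) and normalised by loess within arrays, outlier spots were removed, and repeated spots were averaged. Testing required a sample signal well above background on 3 or more arrays of some genotype, which kept 27700 of 41174 probes. Names came from RefSeq (GRCm38.p6) by accession for 18206 probes, symbol for 4017 and older symbol for 1906, and 3571 kept the file's name. The brightest probe stood for a gene. One model with 4 genotype means was fitted to all 15 arrays, leaving 11 residual degrees of freedom. The tests were two-sided, and adjusted p-values are Benjamini-Hochberg. The fit was tested on simulated data.

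Each slide, of which there are 4, holds 1 array of both genotypes with the same replicate number. Residuals of same-numbered arrays correlated at -0.02, 0.25, 0.31 and -0.33, so the numbers were not taken to pair the samples. Named genes are both knocked-out genes, called genes, the 10 symbols with the smallest p in each direction, up to 4 of the smallest p in each of 40 lists, and neighbours of the knocked-out genes with an unadjusted p under 0.05. One gene that this rule names is not reported here. The comparison, lists and named genes were chosen with earlier results of these data known. Lists are described by counts and medians, with no test.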

Additional observations from a re-analysis of the deposited data

Results flagged for a closer look

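In 17 of 237 groups of 4 arrays, 1 array lay far from the other 3 (its gap over the range was above Dixon's critical value), where chance flags about 1 in 20 groups. Of single genes in p27 knock-out, array 1 stood apart for Mcpt9 (-0.93, others at most -1.95) and Pkp1 (0.81, others -2.31 to -2.16), and array 3 for Igf1 (-1.19, others 0.74 to 1.13). Array 2 stood apart for Xist (1.91, others -2.56 to -2.12), Ddx3y (-7.24, others 0.06 to 0.79) and Kdm5d (-4.53, others 0.16 to 0.84).

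In stathmin knock-out, array 4 stood apart for Fn3krp (-0.72, others 1.38 to 1.46), array 2 for Mtfr1l (0.19, others -0.16 to -0.10), array 3 for Cdk6 (0.58, others -0.38 to -0.22) and array 1 for Nsdhl (0.048, others -0.95 to -0.89). Of list means in p27 knock-out, array 2 stood apart for G1 cyclins (-0.64), the sex-linked genes (-3.46) and the germ-layer markers (0.76), and array 1 for collagens (0.61). In stathmin knock-out, array 1 stood apart for CDK inhibitors (0.32) and inflammatory chemokines (-2.52), and array 2 for the Wnt genes (0.36).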

How the results depend on the processing

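The count of called genes was 1 and was recomputed under 27 alternatives. By limma it was 0 with scaling between arrays (182 genes at an unadjusted p under 0.05), with the sample channel alone (275), with only the 8 arrays and no block (150) and with those 8 arrays and a replicate block (198). It was 2 with each probe tested on its own, 2 with slide as a block, 1 with a replicate block on 15 arrays, and 0 to 2 leaving out 1 array (0 without p27 knock-out 2 or 3 or stathmin knock-out 2 or 3, with 275 to 514 at an unadjusted p under 0.05). On the arrays with low Xist (3 p27 and 2 stathmin knock-out), chosen after seeing the data, it was 6. Among those 6 were Rpl11 and, lower in p27 knock-out, Marco and Tnip3 (-2.01). The second call under the slide block was an unnamed transcript (1.83, adjusted p = 0.0448). Without that block its sample channel alone differed by 0.74 (SE 0.266) and its reference channel by -1.10 (SE 0.173). As for Rpl11, the reference colour thus differed more than the sample colour. Without p27 knock-out 1 the second was Nostrin (1.60). The Rpl11 call was also lost when all probes of a gene were averaged (0.54), where Stmn1 was called (2.21, adjusted p = 0.00301). The adjusted p of Rpl11 ran from 0.000675 to 1.00. The dimmer Stmn1 probe stayed between 3.43 and 3.95, and its call was lost with only the 8 arrays and the replicate block (3.72, adjusted p = 0.553). The cause of each lost call was not tested.

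Of 80 named genes, 69 kept their sign under every alternative run, and of 40 list medians 14 did. On the arrays with low Xist the sign turned for Cdkn1b (0.022), Stmn2 (-0.75), Oas2 (-0.56), Psmb9 (-0.11), Saa3 (-1.37), Xist (0.078), Ddx3y (-0.19), Kdm5d (-0.13), Fap (0.11) and Ldha (-0.064). It also turned for Stmn2 with array weights (-0.13), for Saa3 (-0.32 to 2.48 leaving out 1 array) and for Stmn4 (-0.82 to 0.020). None of these was called either way. The replicate block changed no call on 15 arrays, and 2 of 8 arrays correlated best with the array of their own number. With 4 arrays a group, a median single-gene interval of 0.48 to either side, before adjustment over all genes, limits what could be seen.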
